A study of Mus musculus with 33 samples.

Results

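The binding of the transcription factor Gata4 was compared between cells that received Gata4 together with Mef2c and Tbx5 and cells that received Gata4 alone. These 10 Gata4 libraries, chosen by the factor precipitated, are part of 33 chromatin immunoprecipitation (ChIP-seq) and input libraries that ask where each of the 3 factors binds early in the reprogramming of fibroblasts toward heart muscle cells. All cells were neonatal cardiac fibroblasts of Cd-1 mice carrying the alpha-MHC-GFP reporter, kept as a single immortalized line with a large T antigen that Cre can excise. The factors were delivered by retrovirus, and every group was also treated with the Tgfβ inhibitor sb431542 and the Wnt inhibitor xav939. Cells were harvested unsorted at day 2 after the start of reprogramming. Gata4 was precipitated with a goat polyclonal antibody (C-20, sc-1237x). The Gata4 libraries number 6 from cells with all 3 factors and 4 from cells with Gata4 alone. The line is a single one and the cells were unsorted, so a library can mix infected and uninfected cells, and fewer cells with a bound site cannot be told apart from less binding per cell.

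Gata4 is a zinc finger protein that recognises GATA sequences and can bind its sites in closed chromatin. Mef2c belongs to the MADS-box family and Tbx5 to the T-box family, and each recognises a different sequence. In the developing heart the 3 proteins share many enhancers and physically contact each other, so where Gata4 binds can depend on which partners are present.

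Counts were given for 30815 regions of the mm9 mouse genome, 201 to 1484 bp wide with a median of 234 bp, and levels are stated as CPM, a region's counts scaled to a library total of 1e6 over these regions. The Gata4 libraries from cells with all 3 factors held 352015 to 941173 counts. Replicates 1 and 6 of that group differed by no more than counting noise (chi-square per degree of freedom 1.013, against 1.342 to 2.992 for the other pairs of that group), so they were summed and counted as 1 sample, which leaves 5 samples. The Gata4-alone replicates 1 to 3 held 454716 to 591033 counts. Replicate 4 of Gata4 alone held 222761 counts, and the 10% of regions with most counts took 21.2% of them, within the 20.3% to 25.7% of the input libraries and below the 36.2% to 39.3% of replicates 1 to 3. It was therefore set apart, and its values are given as a check only. Input chromatin was available as 6 samples, 3 from cells with all 3 factors and 1 from each kind of single-factor cell.

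By edgeR's quasi-likelihood test at an adjusted p under 0.05, the signal of Gata4 changed with its partners at 11045 (51.3%) of 21524 regions. The signal was higher with Mef2c and Tbx5 at 5943 of them (27.6%) and lower at 5102 (23.7%). Not all of these regions were enriched over input, as given below. Changes of more than 2 on the log2 scale were called at 1692 higher and 467 lower regions, but at 664 higher and 1582 lower ones when libraries were scaled on the regions not enriched over input, so which direction held more large changes depended on the scaling. All 5 samples with the other factors lay above all 3 samples of Gata4 alone at 5178 regions (24.1% of those tested), of which 4867 were called. All lay below at 4525 regions (21%), of which 4052 were called.

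The balance of gains and losses depended on the scaling too. Scaling on the regions not enriched in either setting shifted the median log2 change over all regions from 0.03 to -0.44 and gave 3801 regions higher and 8111 lower, so that 31.9% of calls were higher instead of 53.8%. Without a filter on low counts 46.5% of 11518 calls were higher. Called in the same direction under library totals, DESeq2 size factors, cyclic loess and the scaling on regions not enriched were 3797 of the 5943 higher regions and 4753 of the 5102 lower ones, and no called region changed its sign under any of these. The level of weakly covered regions in the same samples, the 25th percentile of CPM, was 11.8 ± 3.15 (SD, n = 5) with the other factors and 8.68 ± 2.14 (SD, n = 3) with Gata4 alone (exact permutation test, two-sided, p = 0.214), and the 99th percentile was 153 ± 14 against 176 ± 10.6 (exact permutation p = 0.0714). These differences did not pass 0.05, and the part of weakly covered regions in the split of calls was not tested.

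**Figure D1:**
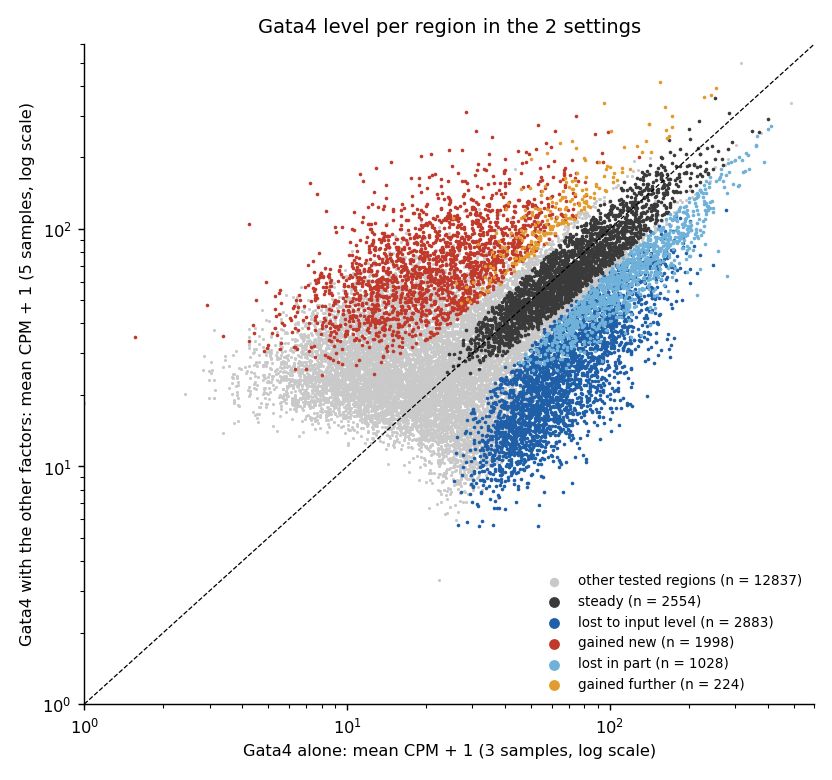
Mean Gata4 level of each tested region with Gata4 alone (x axis, 3 samples) and with Mef2c and Tbx5 (y axis, 5 samples), both as CPM + 1 on a log scale, coloured by class, with the dashed line at equal levels. The 1998 regions gained new spread far above the line, while the 2883 lost to input level lie below it and the 2554 steady regions follow it.

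A further difference between samples was carried by the 5 regions of the Y chromosome, which held 138 to 209.5 CPM in replicates 1, 3 and 6 with the other factors and 259.5 and 284 CPM in replicates 3 and 2 of Gata4 alone. The other samples of both settings held 1.06 to 45.5 CPM there. The inputs of cells with all 3 factors split by the same replicate numbers, on 0 to 12 counts per library. Replicates 1, 3 and 6 of these inputs held 37.5 to 43.1 CPM, and replicates 2, 4 and 5 held 0 to 10.3 CPM. Whether all replicates hold the same cells was not tested. Among the samples with many Y counts alone, 2 against 2, 8673 regions were called, 4847 higher and 3826 lower, and with the Y difference as a term 10816 regions were called.

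To ask whether a change made or ended binding, each setting was also tested against the 6 input samples. Gata4 was enriched over input at 6823 of 22925 regions (29.8%) with the other factors and at 8579 of 27945 regions (30.7%) alone. Leaving out the summed input sample of all-3-factor replicates 1 and 3, or that of replicates 2, 4 and 5, lowered the number of regions called in either direction from 13285 (57.9%) to 7803 or 5368 with the other factors, and from 17100 (61.2%) to 10487 or 10122 alone. Fewer regions then passed the filter: the share called was 40.2% or 33.3% of 19393 or 16100 tested with the other factors, and 64.3% or 63.1% of 16307 or 16034 tested alone. Under library totals the enriched share of calls fell from 51.4% to 35% with the other factors and from 50.2% to 32.6% alone.

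Crossing these tests gave 5 classes of Gata4 regions. Gained new were 1998 regions (9.28% of those tested), higher with the other factors and enriched only there. Gained further were 224 regions (1.04%) that rose and were enriched in both settings. Lost to input level were 2883 regions (13.4%) that fell and were enriched only with Gata4 alone, and lost in part were 1028 (4.78%) that fell but stayed enriched in both. Steady were 2554 regions (11.9%), enriched in both, not called, and with a 95% interval of the change within a log2 of 1 in either direction. A region counted as not enriched either missed the test over input or had too few counts to be tested there. Neither shows that it sits at the input level, and some such regions lie below it. Among the remaining calls, 3721 regions rose without passing the enrichment test in cells with all 3 factors, and 1191 fell without having passed it alone. The 3721 regions rose from a median of 10.5 CPM to 32.9 CPM, where the input median was 33.8 CPM. The 1191 regions fell from a median of 31.9 CPM to 13 CPM, where the input median was 32.7 CPM. These classes come from the tested contrast itself, so their Gata4 levels are descriptions. The regions named below in the gained and lost classes were chosen for large changes without overlap between groups. Their separate ranges are therefore no result. Without that choice, the samples lay fully apart at 1712 of the 1998 gained new and 153 of the 224 gained further regions. For regions lost to input level and lost in part this held at 2513 of 2883 and 719 of 1028.

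Across the gained new regions the median level was 66.5 CPM with the other factors and 20.3 CPM alone, with a median log2 change of 1.74. The largest change among the named regions was at chr9:42811977-42812315, where the 5 samples with the other factors held 111, 73.0, 110, 131 and 96.7 CPM and the 3 samples alone held 4.14, 3.38 and 2.2 CPM. The settings did not come near each other there, and Gata4 alone lay below the 42.3 to 54.7 CPM of the inputs. The log2 change was 4.91 ± 0.44 (SE, adjusted p = 5.45e-10).

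At chr5:35963704-35964007 Gata4 held 176, 109, 120, 230 and 142 CPM with the other factors against 4.14, 10.2 and 4.4 CPM alone, a log2 change of 4.53 ± 0.41 (SE, adjusted p = 5.45e-10). At chr2:85078317-85078686 it held 166, 138, 134, 105 and 155 CPM against 8.28, 5.08 and 6.6 CPM, a log2 change of 4.4 ± 0.38 (SE, adjusted p = 3.99e-10). Every sample with the other factors exceeded every sample alone by a wide margin at both regions. Replicate 4 of Gata4 alone held 49.4, 18 and 62.8 CPM at these 3 regions, within or just above the range of the inputs. The other 3 named regions of the class changed by 3.87 to 4.02 on the log2 scale.

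At the first 3 of these places Tbx5 was high without Gata4. In cells with Tbx5 alone its mean level was 293 CPM at chr9:42811977-42812315, 213 CPM at chr5:35963704-35964007 and 157 CPM at chr2:85078317-85078686. With all 3 factors it was 191, 183 and 272 CPM, a log2 change of -0.67 ± 0.18 (SE, adjusted p = 0.012), -0.28 ± 0.20 (adjusted p = 0.301) and 0.73 (adjusted p = 0.0213). Mef2c rose at all 3 by 1.87, 1.72 and 2.05 on the log2 scale, from 3.86, 5.31 and 7.45 CPM alone to 17.8, 20.6 and 37.8 CPM, levels that in CPM lay within or below those of the inputs.

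The other 3 named regions did not all share this pattern. At chr8:110047980-110048408 and chr12:21197427-21197771 Tbx5 alone was low, at 30.7 and 21.4 CPM, and rose to 172 and 96 CPM with all 3 factors (log2 change 2.39 and 2.13, adjusted p = 0.00011 and 0.000261). At chr4:45050994-45051329 Tbx5 held 92.5 CPM alone and 109 CPM with all 3 factors, above the 24.2 to 58.7 CPM of the inputs. Mef2c was already high there alone too, at 150 CPM, and reached 300.0 CPM with the others. Large gains of Gata4 thus lay at places with differing partner occupancy.

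Regions gained further rose less, from a median of 57.1 to 110 CPM. At chr17:26782116-26782382 Gata4 held 123, 107, 104, 93.7 and 123 CPM with the other factors and 31.0, 22.0 and 19.8 CPM alone, a log2 change of 2.2 ± 0.30 (SE, adjusted p = 3.89e-07). At chr11:54693404-54693769 the values were 207, 190, 127, 276 and 177 CPM against 45.5, 42.3 and 59.4 CPM, a log2 change of 2.00 ± 0.28 (SE, adjusted p = 6.74e-07). At chr8:93871203-93871634 they were 220, 159, 182, 253 and 223 CPM against 62.1, 64.3 and 44.0 CPM, a log2 change of 1.86 ± 0.27 (SE, adjusted p = 8.45e-07). All 3 regions kept separate ranges, and all 3 remained called under each of the 4 scalings, as 32 of the 224 regions of this class did. This class was the least stable in number: it held 99 to 302 regions when single samples were left out, with 99 and 121 without replicates 2 and 3 of Gata4 alone and 140 without the summed replicates 1 and 6.

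Regions lost to input level fell from a median of 62.8 to 22.7 CPM. At chr14:57304271-57304499 Gata4 alone held 47.6, 84.6 and 108 CPM, and with the other factors 8.76, 13.2, 12.4, 8.52 and 4.25 CPM, a log2 change of -3.08 ± 0.33 (SE, adjusted p = 1.14e-08). At chr7:128084622-128084832 the alone samples held 89.0, 94.7 and 57.2 CPM against 4.38, 15.6, 14.2, 2.84 and 11.7 CPM, a log2 change of -3.01 ± 0.34 (SE, adjusted p = 2.24e-08). At chr5:105929237-105929534 they held 72.4, 86.3 and 74.8 CPM against 7.30, 10.8, 15.9, 8.52 and 8.50 CPM, a log2 change of -2.96 ± 0.31 (SE, adjusted p = 6.29e-09). The lowest alone sample stood well above the highest sample with the other factors at each region. With the other factors, chr14:57304271-57304499 and chr7:128084622-128084832 were not tested over input. There chr5:105929237-105929534 lay below input (log2 -1.75, edgeR adjusted p = 0.000459). Neither partner was high at these 3 regions in any setting: Tbx5 means were 6.08 to 10.3 CPM and Mef2c means 3.19 to 14.2 CPM. The other 3 named regions of this class changed by -2.93 to -2.86.

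Regions lost in part kept a median of 58.6 CPM with the other factors, down from 111 CPM. At chr11:86720777-86721009 Gata4 alone held 354, 266 and 216 CPM and with the other factors 62.1, 34.7, 81.4, 34.1 and 101 CPM, a log2 change of -2.10 ± 0.27 (SE, adjusted p = 2.34e-07). At chr5:107876951-107877176 the values were 226, 218 and 196 CPM against 46.7, 69.4, 46.0, 19.9 and 76.5 CPM, a log2 change of -1.97 ± 0.26 (SE, adjusted p = 3.1e-07). At chr1:62484124-62484330 they were 114, 124 and 154 CPM against 48.2, 20.4, 40.7, 34.1 and 29.8 CPM, a log2 change of -1.88 ± 0.26 (SE, adjusted p = 6.56e-07). The ranges stayed apart at each region, although the samples with the other factors spread widely. Tbx5 and Mef2c again were low, at 4.63 to 10.4 CPM and 1.05 to 15.0 CPM.

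At the steady regions the median was 62.2 CPM with the other factors and 66.1 CPM alone. The one with the highest level, chr9:89854866-89856349, held 372, 213, 257, 375 and 228 CPM with the other factors and 230, 491 and 473 CPM alone, a log2 change of -0.46 (95% interval -0.96 to 0.04, adjusted p = 0.117). At 1484 bp it is also the widest region, and CPM is not scaled by width. At chr3:151692117-151692871 the values were 425, 321, 350, 341 and 337 CPM against 195, 262 and 295 CPM, a log2 change of 0.51 (95% interval 0.06 to 0.97, adjusted p = 0.0548). At chr2:60737926-60738330 they were 348, 208, 281, 213 and 226 CPM against 288, 459 and 361 CPM, a log2 change of -0.52 (95% interval -0.98 to -0.05, adjusted p = 0.0575). The ranges overlapped at the first and the last of these and not at chr3:151692117-151692871. These values allow changes of up to nearly a log2 of 1, and the 3 regions passed the threshold under some of the other settings.

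**Figure D2:**
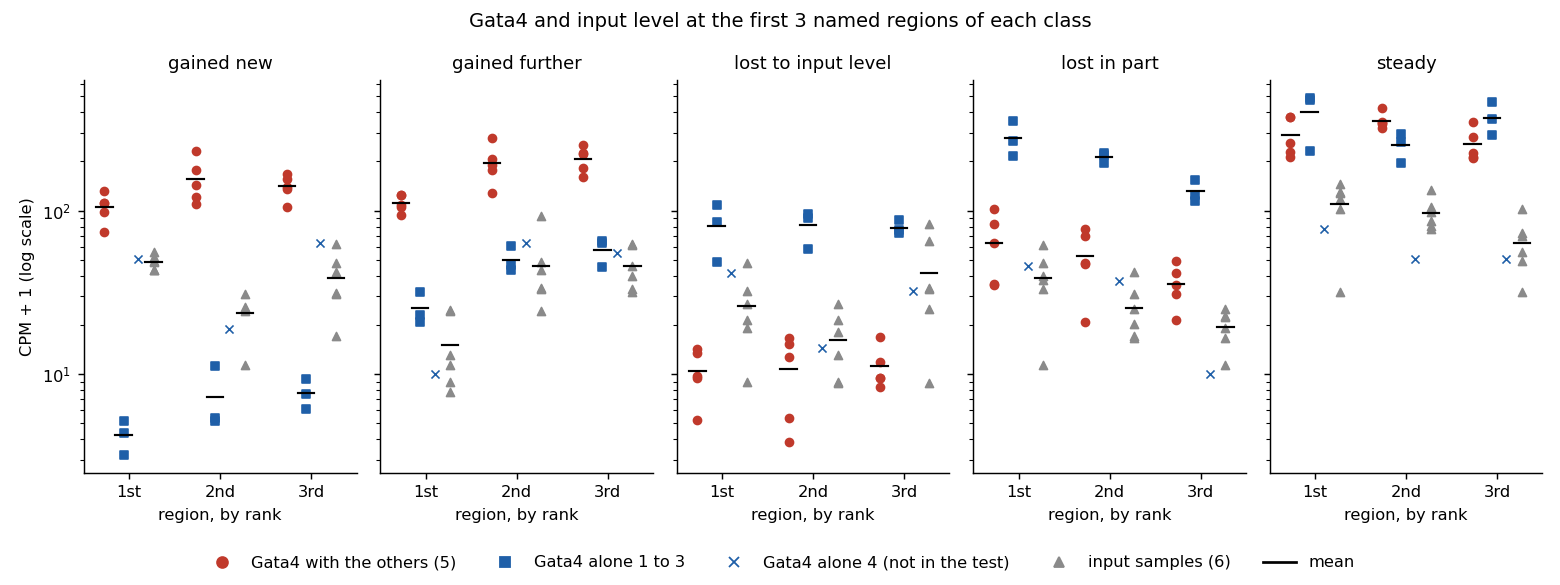
Level as CPM + 1 on a log scale in every sample at the first 3 named regions of each class, with Gata4 with the other factors as red circles, Gata4 alone as blue squares, its replicate 4 as a cross, inputs as grey triangles and the mean as a bar. Red and blue do not overlap at these regions of the gained and lost classes, as their choice required. At the first gained region the means were 104 and 3.24 CPM.

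The classes can also be read as shares of each sample's counts. Gained new regions took 15 ± 1.11% of the counts of Gata4 with the other factors (SD, n = 5) and 4.67 ± 0.358% of those of Gata4 alone (SD, n = 3), which is below the 7.65% and 8.15% of the inputs of cells with all 3 factors and of single-factor cells. Regions lost to input level took 7.72 ± 0.686% with the other factors against 20.3 ± 1.76% alone, with the inputs at 9.82% and 9.49%. Steady regions took 18.2 ± 1.77% and 19.3 ± 0.321%. In replicate 4 of Gata4 alone, gained new regions took 8.39%, lost to input level 8.83% and steady regions 9.15%, each near the share in inputs.

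The same regions behaved differently for the partners. Gained new regions took 11.6% of the Mef2c counts with the other factors and 5.15% alone, and 16.7% of the Tbx5 counts with the others and 11.4% alone. Regions lost to input level took 4.19% and 4.46% of the Mef2c counts and 3.51% and 4.14% of the Tbx5 counts, below the inputs in both settings.

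**Figure D3:**
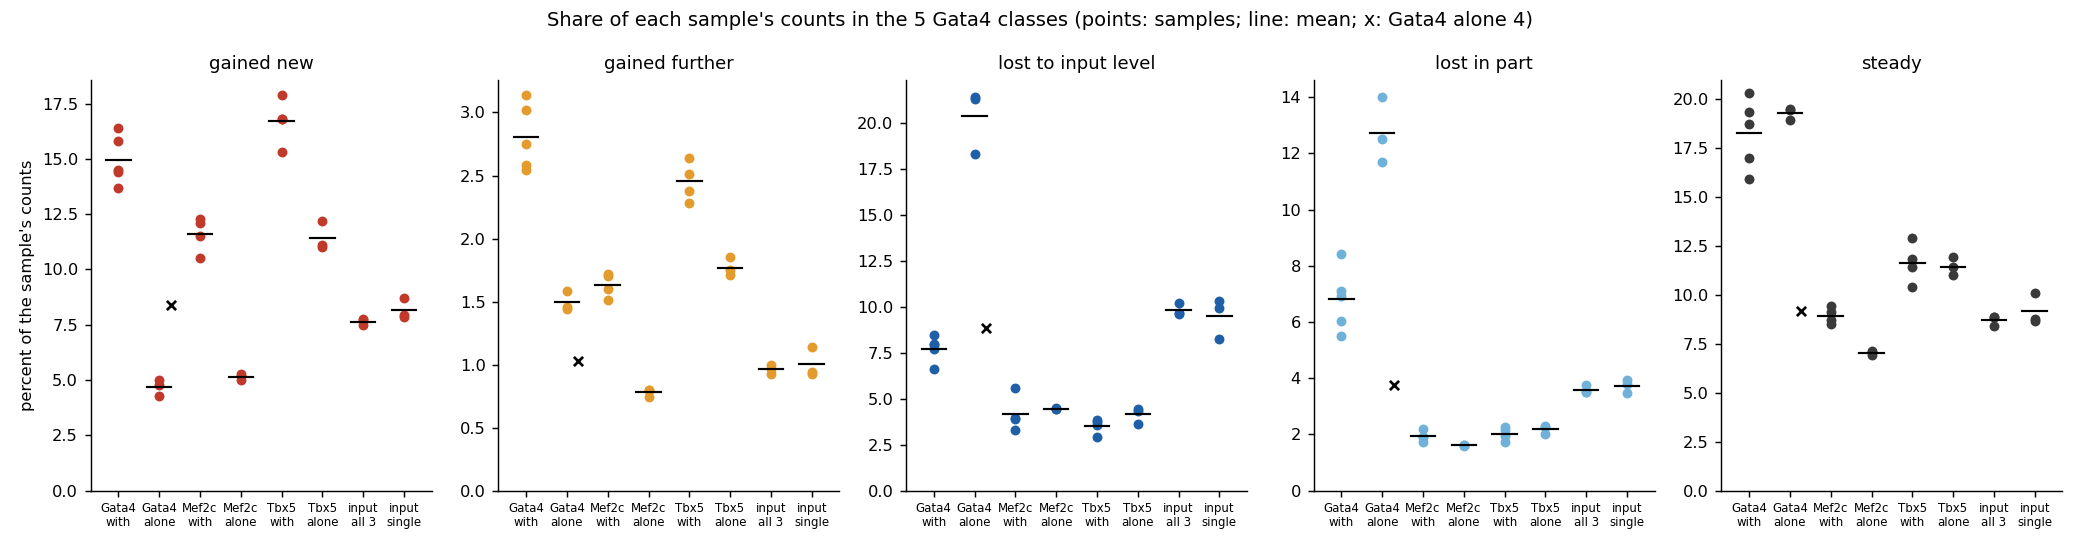
Percent of each sample's counts that fell in the 5 Gata4 classes, for Gata4, Mef2c and Tbx5 with the other factors and alone and for the inputs, with points for samples, a line for the mean and a cross for replicate 4 of Gata4 alone. Gained new regions rise from 4.67% to 15% for Gata4 and from 11.4% to 16.7% for Tbx5, while regions lost to input level exceed the inputs in Gata4 alone (20.3%) and regions lost in part exceed them in both Gata4 settings (6.8% and 12.7%).

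The Mef2c and Tbx5 libraries do not enter the Gata4 comparison. Their own change from alone to all 3 factors is therefore a separate readout of the Gata4 classes. The partner counts were less concentrated with all 3 factors. The regions with most counts, taken as for Gata4 above, held 36.9% to 44.5% of Mef2c counts then, against 55.2% to 55.6% alone. For Tbx5 they held 37.5% to 39.6% against 42.7% to 45.3%. The median CPM over all regions was 12.2 to 20.9 against 8.26 to 8.71 for Mef2c. For Tbx5 it was 15.7 to 17.2 against 14.4 to 16.5. How far this bears on the partner calls below was not tested. The labels do not say whether the factors were precipitated from the same cultures. Mef2c changed at 11648 of 19391 regions tested (60.1%), higher at 31.3% and lower at 28.8%. Tbx5 changed at 5524 of 16395 (33.7%), higher at 18.8% and lower at 14.9%. The balance for Mef2c moved with the processing: 52.1% of its calls were higher, but 64% under library totals and 38.7% without a filter on low counts.

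Where Gata4 gained new binding, Mef2c was higher at 1407 of 1742 regions tested (80.8%) and lower at 64 (3.67%). Tbx5 was higher at 943 of 1950 (48.4%) and lower at 95 (4.87%). The median Mef2c level over the gained new regions averaged 6.37 CPM alone and 32.4 CPM with the others. For Tbx5 it averaged 32.5 and 69 CPM. The inputs of cells with all 3 factors and of single-factor cells averaged 36.1 and 37.4 CPM, so in CPM the typical Mef2c level with the others did not exceed that of the inputs. CPM is scaled on library totals, under which the median log2 of Mef2c with the others over input was -0.894 across tested regions. Under the TMM scaling used for the enrichment tests below it was -0.114, so this comparison depends on the scaling. Where Gata4 gained further, the shares higher were 75.5% for Mef2c and 45.3% for Tbx5. All of these lie well above the 31.3% and 18.8% over all regions tested for those factors. They also lie above the 37.5% and 21.1% over the regions tested for both Gata4 and that factor. A region passed the filter on low counts if either setting held enough of them. At the median of 6.37 CPM with Mef2c alone, a region could pass through the samples with the others only, where a fall could hardly be called. How far the shares for the gained classes depend on this was not tested.

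Where Gata4 was lost to input level, the partners were seldom higher. Among 959 regions tested for Mef2c, 72 were higher (7.51%) and 276 lower (28.8%). Among 694 tested for Tbx5, 8 were higher (1.15%) and 132 lower (19%). Over the regions tested for both Gata4 and that factor, Mef2c was lower at 18.1% and Tbx5 at 11.5%. Over all regions tested for each factor, which include some not tested for Gata4, the shares lower were 28.8% and 14.9%. Most lost regions had too few counts for the partners to be tested. At steady regions Mef2c was higher at 31.8% and Tbx5 at 12.7%, below the 37.5% and 21.1% over the regions tested for both Gata4 and that factor. Over all regions tested for each factor the shares higher were 31.3% and 18.8%, so the Mef2c share at steady regions lay near that one.

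**Figure D4:**
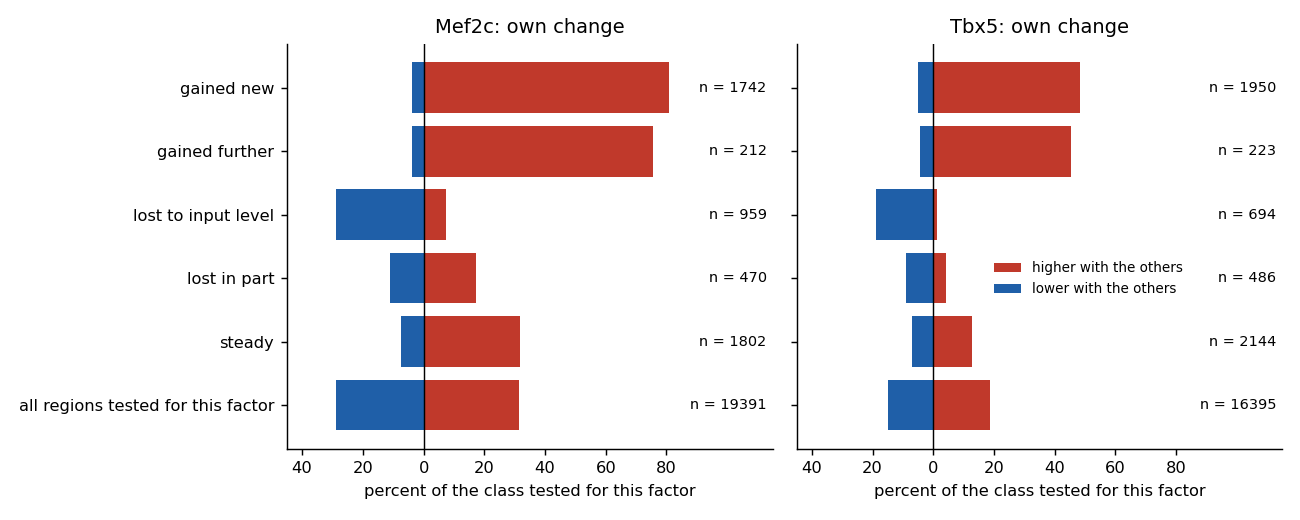
Percent of the regions of each Gata4 class that were called higher (red, right) or lower (blue, left) for Mef2c and for Tbx5 with the other factors against that factor alone, among the n regions tested for that factor. Regions gained new by Gata4 reach 80.8% higher for Mef2c and 48.4% for Tbx5, against 31.3% and 18.8% over all regions tested for that factor.

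Gains and losses of Gata4 here take in all its calls, including the 3721 higher and 1191 lower regions that did not pass the enrichment test. The limit set by the filter on low counts, given above, also applies to the shared calls below. Counted over all calls, 3592 regions rose for both Gata4 and Mef2c, which is 72.2% of the Gata4 gains and 67.5% of the Mef2c gains among regions tested for both, where Mef2c rose at 37.5%. Gata4 and Tbx5 shared 2310 gains, 43% of those of Gata4 and 78.7% of those of Tbx5, with Tbx5 higher at 21.1% of the regions tested for both. Shared losses numbered 443 with Mef2c (26.6% of the Gata4 losses and 17.3% of the Mef2c losses) and 213 with Tbx5 (16.5% and 13.3%), where Mef2c and Tbx5 were lower at 18.1% and 11.5% of the regions tested for both.

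Of the Gata4 gains tested for all 3 factors, 1700 of 4497 (37.8%) rose for all 3, and both partners rose at 18.2% of all 11284 such regions. Of the Gata4 losses 59 of 942 (6.26%) fell for all 3, and both partners fell at 1.59% of all such regions. Opposite changes also occurred. Mef2c fell at 333 (6.7%) and Tbx5 at 356 (6.63%) of the Gata4 gains, against 18.1% and 11.5%, and they rose at 158 (9.49%) and 29 (2.25%) of the Gata4 losses, against 37.5% and 21.1%.

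Next, the partners' own occupancy at the Gata4 classes was set against input. Regions with too few counts to be tested over input were counted as not enriched, and shares are of all regions of a class. Of the 1998 gained new regions, Tbx5 was enriched at 830 (41.5%) in cells with Tbx5 alone and at 1674 (83.8%) with all 3 factors. Mef2c was enriched at 394 (19.7%) alone and at 859 (43%) with all 3. Over all regions tested for Gata4 these shares were 29.1%, 38.8%, 26.3% and 29.2%. At least 1 of the partners was enriched with all 3 factors at 1819 gained new regions (91%), against 56.3% of all tested regions, and both were at 714 (35.7%), against 11.8%. Neither was enriched in either setting at 174 (8.71%), against 37.9% of all tested regions.

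The lost regions were the reverse. Neither partner was enriched in either setting at 2385 of the 2883 regions lost to input level (82.7%), and at 73% of those lost in part, against 35.4% of the steady regions. Tbx5 with all 3 factors was enriched at 2.01% of the regions lost to input level and Mef2c at 7.67%. These tests share their inputs with the tests that define the Gata4 classes, and the shares are descriptions. Over all regions tested for each, 38.2% were enriched for Mef2c with the others, 33.6% for Mef2c alone, 35.4% for Tbx5 with the others and 33.4% for Tbx5 alone. Under library totals the share of calls that were enriched fell to 31.4%, 24%, 33.5% and 31.3%, from 51.8%, 45.8%, 48.9% and 49%.

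**Figure D5:**
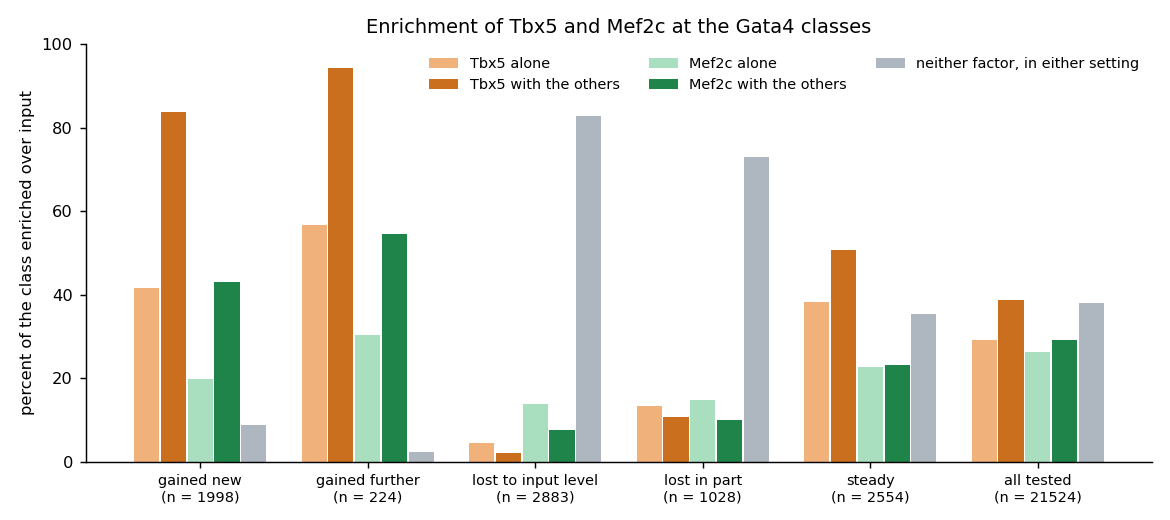
Percent of the regions of each Gata4 class (n below each) at which Tbx5 (orange) or Mef2c (green) was enriched over input, alone (light) or with the other factors (dark), and at which neither was in either setting (grey). Tbx5 with the others reaches 83.8% at regions gained new, while 82.7% of the regions lost to input level were counted as enriched for neither partner.

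The gained new regions were also split by what the partners did without Gata4. Tbx5 alone, but not Mef2c alone, was enriched at 696 of them (34.8%, against 23.3% of all tested regions), where the median Tbx5 level was 86.3 CPM alone and 108 CPM with the others and Gata4 changed by a median log2 of 1.88. Mef2c alone, but not Tbx5 alone, was enriched at 260 (13%, against 20.5%), where Gata4 changed by 1.54. Both were enriched alone at 134 (6.71%, against 5.82%), where Gata4 changed by 1.47. A partner was enriched with all 3 factors but neither was alone at 734 (36.7%, against 12.5%), with a median Gata4 change of 1.87. At the 174 with no enriched partner Gata4 changed by 1.43, to 48.8 CPM. Of these groups, in that order, 80.5%, 62.3%, 66.4%, 76.8% and 58% were also called under all 4 scalings.

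Single regions show these combinations. They were chosen after their values were seen. At chr16:58500657-58500988 all 3 factors rose: Gata4 held 54.0, 64.6, 61.9, 45.5 and 68.0 CPM with the others and 6.21, 3.38 and 2.2 CPM alone, while Mef2c went from 11 to 76.3 CPM and Tbx5 from 11.1 to 48.8 CPM on average, with the inputs at 10.3 to 71.9 CPM. The 2 Gata4 ranges were far apart, with a log2 change of 3.87 ± 0.44 (SE, adjusted p = 2.43e-08).

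At chr17:73371686-73372265 Gata4 and Mef2c rose while Tbx5 fell. Gata4 held 180, 97.0, 131, 173 and 126 CPM with the others and 12.4, 5.08 and 17.6 CPM alone, a log2 change of 3.64 ± 0.37 (SE, adjusted p = 4.37e-09). Tbx5 fell from 588 ± 64.3 CPM (SD, n = 3) to 318 ± 71.3 CPM (SD, n = 4), a log2 change of -0.94 ± 0.19 (SE, adjusted p = 0.00195), and so was still high. Mef2c rose there from 5.72 to 62.3 CPM on average (log2 change 3.19 ± 0.42, SE, adjusted p = 6.68e-07). Similarly, at chr4:64237548-64237799 Gata4 rose from 8.28, 13.5 and 15.4 CPM to 70.8, 88.6, 79.6, 111 and 86.1 CPM, with Mef2c falling from 407 to 246 CPM on average (log2 change -1.01 ± 0.20, SE, adjusted p = 9.21e-05). Tbx5 rose at this region, from 6.98 to 23.1 CPM on average (log2 change 1.64 ± 0.5, SE, adjusted p = 0.02).

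At chr17:29318823-29319027 neither partner was enriched in either setting. Gata4 held 62.8, 33.5, 60.2, 102 and 34.0 CPM with the others and 2.07, 5.08 and 13.2 CPM alone, with mean levels of 5.06 CPM for Mef2c and 9.94 CPM for Tbx5 with the others. The Gata4 ranges did not overlap, but replicate 4 of Gata4 alone held 53.9 CPM, inside the range with the other factors. The log2 change without replicate 4 was 3.05 ± 0.48 (SE, adjusted p = 3.57e-06).

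Among the losses, chr2:91229333-91229848 moved the opposite way for Mef2c. Gata4 fell there from 176, 184 and 85.8 CPM to 35.8, 37.1, 33.6, 31.2 and 24.4 CPM (log2 change -2.19 ± 0.27, SE, adjusted p = 8.02e-08), while Mef2c rose from 22.2 to 49 CPM on average (log2 change 0.85 ± 0.32, SE, adjusted p = 0.0232). The inputs held 31.3 to 87.9 CPM there, so in CPM Mef2c did not exceed them in either setting. At chr10:89062063-89062312 the counts of all 3 factors fell. Gata4 held 55.9, 77.8 and 79.2 CPM alone and 10.2, 20.4, 12.4, 17.0 and 13.8 CPM with the others, with log2 changes of -2.29 ± 0.30 for Gata4, -1.23 ± 0.43 for Mef2c and -2.21 ± 0.39 for Tbx5 (SE, adjusted p = 2.22e-07, 0.0167 and 0.000811). Mef2c went from 15.2 to 8.39 CPM and Tbx5 from 46 to 9.87 CPM on average, where the inputs held 16 to 62.6 CPM, so in CPM neither partner exceeded the inputs in either setting. CPM is scaled on library totals, under which the median log2 of Tbx5 alone over input was -0.98 across tested regions, against -0.308 under TMM. The comparison with the inputs can thus depend on the scaling, and the partners' enrichment under TMM at these regions is not given here.

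Width went along with the direction of the Gata4 change. Of the 1923 tested regions of 201 bp, the smallest width, 18.3% were higher with the other factors and 35.2% lower. Of the 1544 regions of 500 bp or more, 37.9% were higher and 19.2% lower. The median width was 329 bp for gained new regions, 250 bp for those lost to input level and 268 bp for all tested regions. The widths are those of the deposited region list, whose construction is not given in the sources used here.

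Neighbouring regions tended to share their direction. Of 902 gained new regions with a tested neighbour within 10 kb, 57.1% had a nearest neighbour that was also higher and 6.43% one that was lower, against 31.3% and 18.3% for all tested regions. Of 851 such regions lost to input level, 39.7% had a lower neighbour and 11.9% a higher one. The median distance to another region was 8002 bp for gained new regions and 7862 bp for steady ones, against 15158 bp for those lost to input level and 10891.5 bp for all tested regions. Close neighbours can share sheared fragments, so they are not independent observations.

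Input chromatin was compared between cells with all 3 factors and single-factor cells, 3 samples against 3. Of 853 regions 0 (0%) passed edgeR's test (43 had an unadjusted p under 0.05), and none passed with DESeq2 (29 had an unadjusted p under 0.05). Without the filter on low counts none of 30815 regions passed, with 1686 at an unadjusted p under 0.05. The inputs held 97474 to 301678 counts per library, and the size of difference detectable at this depth was not tested.

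When the change in input was subtracted from the change in Gata4, 4843 of 29102 regions were called (16.6%), 2469 higher (8.48%) and 2374 lower (8.16%). Leaving out replicate 2 of Gata4 alone lowered this to 3137, and leaving out the Gata4-alone input to 2584. The direction held at 5840 of 5927 gains (98.5%) and 5019 of 5095 losses (98.5%). Of these, 2344 gains and 2120 losses were still called, and none was called in the opposite direction.

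Replicate 4 of Gata4 alone showed neither pattern. Its median level was 40.4 CPM at gained new regions, 26.9 CPM at regions lost to input level and 31.4 CPM at steady regions, where the inputs had medians of 35.6, 31.5 and 32.1 CPM. With it in the comparison, 6589 regions were called, 3427 higher and 3162 lower.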

How the data were processed

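Per the submitters' processing notes, which name FastQC, Bowtie2 2.2.4, featureCounts and the mm9 build, the authors deposited raw counts of reads per region for 33 libraries. How regions were called is not given in the sources used here. Columns of other samples numbered 0.

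Counts were analysed as deposited with edgeR 4.0.16 in R 4.3.3 (TMM scaling, filterByExpr with a minimum count of 10 and total of 15, robust quasi-likelihood F test, two-sided, Benjamini-Hochberg over all regions tested, threshold 0.05), with DESeq2 1.42.0 and limma 3.58.1 (cyclic loess) as alternatives. Each comparison was fitted on its own groups. The fit was tested on simulated data with few changed regions, as many higher as lower, which cannot test the choice of scaling. Inputs that agreed within counting noise (all-3-factor replicates 1 and 3, and 2, 4 and 5) were summed, as were Gata4 replicates 1 and 6, which leaves 29 samples. CPM uses library totals over the 30815 regions. Values are listed in replicate order, with 1 and 6 summed first. A standard error is the size of the log2 change over the square root of F.

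Named regions were the 6 of each class with the largest change among those called, above the median level and without overlap between groups, and for steady regions the 6 with the highest level, passing over chromosome 18. The first 3 are given in full. Members, lists, rules and classes were chosen with earlier results of these data known. The samples with over 100 CPM on the Y chromosome and the partners' enrichment over input were added after the data were seen. Genes and motifs at the regions were not analysed here, since the tables at hand describe another build.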

Additional observations from a re-analysis of the deposited data

Results flagged for a closer look

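Of 35 groups of named-region values tested, 1 held a sample far from the rest. At chr3:151692117-151692871, a steady region, the summed replicates 1 and 6 of Gata4 with the other factors held 425 CPM, while the other 4 samples held 321 to 350 CPM. Chance marks about 1 in 20 such groups.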

How the results depend on the processing

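The labels' replicate numbers are shared between the Gata4 groups, but same-numbered samples did not deviate together (r = -0.15, -0.089 and -0.055), and no sample among replicates 1 to 3 with the other factors correlated best with its own number. With the replicate block 9430 regions were called for Gata4, 9809 for Mef2c and 5112 for Tbx5. With replicate 4 of Gata4 alone the Gata4 calls numbered 6589, or 6310 under library totals, and 8576 to 11138 with single samples left out. Leaving out single samples gave 5368 to 16627 calls for Gata4 with the other factors over input, 10122 to 17333 for Gata4 alone over input and 2584 to 5044 for the input-adjusted change. Requiring a log2 enrichment above 1 gave 1055 regions gained new, 106 gained further, 480 lost in part and 1397 steady. Gained further ranged from 99 to 302 with single samples left out, and numbered 82 in 1 fit of all 6 ChIP groups, 32 with scaling on regions not enriched, 70 beyond a 1.5-fold change, 91 without a filter, 64 with enrichment by library totals, 130 with enrichment by DESeq2 and 127 with only the inputs of cells with all 3 factors. Lost in part numbered 2322 with scaling on regions not enriched, 275 beyond a 1.5-fold change, 475 with only libraries 1, 3 and 6, 664 with only the samples with many Y counts, 214 with replicate 4 and 252 with it under library totals. With enrichment by library totals, by DESeq2 and without a filter it numbered 575, 663 and 1545, and steady regions numbered 1548 by library totals. The cause was not tested. Named regions gave 666 of 688 unchanged calls, and 22, all at steady regions, passed the threshold under another setting; none changed direction. Leaving out a summed input sample also lowers the number of regions tested over input.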

Other observations

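Gata4 gains also came in longer runs of neighbouring regions than losses. With neighbours no more than 10 kb apart, 136 runs of 3 or more regions were all called higher, and 24 were all called lower. Higher calls are more numerous (5943 against 5102) and lie closer to other regions (median 8770 against 15185.5 bp), and no test was made of the number of runs. The longest runs of gains held 6 regions each, at chr11:58797502-58816492 (median log2 change 1.61) and at chr2:127904945-127930922 (median 1.73). The longest run of losses held 4 regions, at chr10:21551197-21569408 (median -1.27).

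Across chromosomes the share of Gata4 calls that were higher ran from 44.8% on chromosome 13 to 59.8% on chromosome 7. No region of the Y chromosome was called among 5 tested. With the tested regions split by level into 5 groups of like size, the share higher was greatest, 35.3%, in group 3, and the share lower was greatest, 29%, in group 5, with the highest levels.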
